A study of Mus musculus with 16 samples.

Results

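AMPA receptors were described here by 10 genes, the subunit genes *Gria1*, *Gria2*, *Gria3* and *Gria4* and the auxiliary protein genes *Cacng2*, *Cacng3*, *Cacng8*, *Cnih2*, *Cnih3* and *Gsg1l*. The genes were taken by symbol, and all 10 were present among the 48397 gene symbols counted in each library and passed the filter on low counts. RNA was sequenced from primary hippocampal neurons of wild-type CD1 mice, prepared from newborn pups and grown to 17 days in vitro (DIV). Each of 4 groups had 4 libraries, and the methods describe them as 4 independent cultures. The neurons received medium conditioned by immortalized astrocytes and concentrated 10-fold, at 10 and again at 13 DIV. In the apoE2, apoE3 and apoE4 groups these astrocytes were homozygous for the human *APOE* allele of that name, derived from targeted replacement mice, and in the control group they were *Apoe*-/-. The control neurons therefore received astrocytic medium too, and all 4 groups received AraC, which stops dividing cells, at 3 DIV. Each genotype of medium came from an immortalized line, so that a difference between lines other than apoE cannot be told apart from the isoform. The mouse neurons and the glia left in the culture kept their own *Apoe* in every group.

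AMPA receptors are tetramers of the GluA1 to GluA4 subunits and carry most of the fast excitatory current at hippocampal synapses. GluA2, when edited at its pore site, makes the receptor impermeable to calcium, and GluA1 is the subunit best known for activity-dependent insertion at synapses. Auxiliary proteins bind the tetramer, carry it to the surface and set how fast it closes. The transmembrane AMPA receptor regulatory proteins (TARPs) and the cornichons slow deactivation and desensitization and help surface delivery, and GSG1L is known as a suppressor of AMPA receptor currents.

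In GENCODE M21 on GRCm38 (mm10) all 10 are protein-coding. *Gria1* lies at chr11:57011387-57330244 on the plus strand, *Gria2* at chr3:80681450-80802835 on the minus strand, *Gria3* at chrX:41400854-41678601 on the plus strand and *Gria4* at chr9:4417896-4796234 on the minus strand. Of the TARP genes, *Cacng2* (stargazin, TARP γ-2) lies at chr15:77991748-78120028 (minus), *Cacng3* (TARP γ-3) at chr7:122670492-122769393 (plus) and *Cacng8* (TARP γ-8) at chr7:3390683-3415648 (plus). The cornichon genes are *Cnih2* at chr19:5092868-5098521 (minus) and *Cnih3* at chr1:181352628-181460641 (plus), and *Gsg1l* lies at chr7:125878420-126082411 (minus). Exon bases shared with another gene were 5.86% for *Cacng2* (with *A730060N03Rik* on the other strand), 3.88% for *Cacng8* (with *Gm23450* on the same strand) and 1.02% for *Cnih2* (with *Yif1a* on the other strand), and under 1% or none for the other 7. The annotation and the strand setting of the counting are not stated, so how reads in these stretches were counted is not known.

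The libraries held between 14087723 and 34248172 counts on genes with a median of 22221832, and reads on no single gene made up 38.4 to 73.7% of a library. *Lars2* took 0.359 to 15.02% of the gene counts, *Rn18s-rs5* 0.111 to 5.81%, *mt-Rnr2* 3.15 to 5.38% and *Rn7sk* 0.777 to 1.27%, while the 10 AMPA receptor genes together took 0.135 to 0.304%. Some libraries stood apart from those of the same replicate number. ApoE2 replicate 4 had 0.690% of its gene counts on *Lars2* against 7.64 to 9.82% in the other libraries numbered 4, and 38.4% of reads on no single gene against 63.5 to 67.1%. ApoE4 replicate 2 had 0.359% on *Lars2* against 2.83 to 4.85% in the other libraries numbered 2, and 38.6% on no single gene against 52.0 to 56.0%. These were also the deepest libraries, and edgeR values without them are given beside the calls of *Gsg1l*, *Cnih3* and *Cnih2* in edgeR with the block whose groups hold them. The part of their composition in these differences was not tested. Pan-neuronal markers (9 genes, among them *Map2*, *Rbfox3* and *Syp*) were counted in every library and summed to 3173 to 7975 CPM (counts relative to the TMM-scaled library size). This list also holds the postsynaptic genes *Dlg4* and *Grin1*, and *Dlg4* is counted among the other genes of AMPA receptor biology below as well. The 9 astrocyte markers, led by *Gfap*, summed to 1560 to 7868 CPM, so the cultures held astrocyte RNA in every group. The paper counted GFAP-labeled astrocytes in cultures stained on coverslips. It reports that their share of all cells was small and did not differ significantly between treatments. Marker RNA is not a cell count, and the sequenced cultures have no such counts here. The 7 microglial markers summed to no more than 24.4 CPM, and *Tmem119* was at 0 in 1 library. In bulk RNA, fewer neurons and less of a transcript per neuron cannot be told apart.

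Counted per kilobase of the union of exons, *Gria1* was the most abundant subunit RNA and *Cnih2* by far the most abundant auxiliary RNA. *Gria1* made up a median of 55.4% of the 4 subunits (49.7 to 59.4% over the 16 libraries), *Gria2* 32.0% (27.7 to 39.2%), *Gria4* 6.55% (4.59 to 11.8%) and *Gria3* 4.43% (3.83 to 6.16%). On this length the ranges of *Gria1* and *Gria2* did not meet, whereas *Gria3* and *Gria4* overlapped. With the longest principal transcript as the length, the medians of *Gria1* and *Gria2* were closer, at 48.5% (42.5 to 52.3%) and 37.6% (32.8 to 45.0%). The order then turned in apoE2 replicate 3 (43.3% and 44.4%) and apoE3 replicate 3 (42.5% and 45.0%), so that the level of *Gria2* per kilobase depends on the length chosen (15548 bases for the union of exons and 10371 for the transcript). The medians of *Gria3* and *Gria4* also changed order with that transcript, at 6.52% (5.75 to 9.15%) and 5.99% (4.16 to 10.9%). Among the 6 auxiliary RNAs, *Cnih2* held a median of 77.0%, *Cacng8* 10.5%, *Cnih3* 8.88%, *Cacng2* 1.87%, *Cacng3* 0.804% and *Gsg1l* 0.430%. *Cacng8*, the TARP typical of the hippocampus, exceeded *Cacng2* with a mean ratio per kilobase of 5.05 ± 0.988 (SD, n = 4) in the control libraries. *Gsg1l* was the scarcest and most variable member, with a share of 0.109 to 1.11% and 24 to 197 counts per library.

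**Figure D1:**
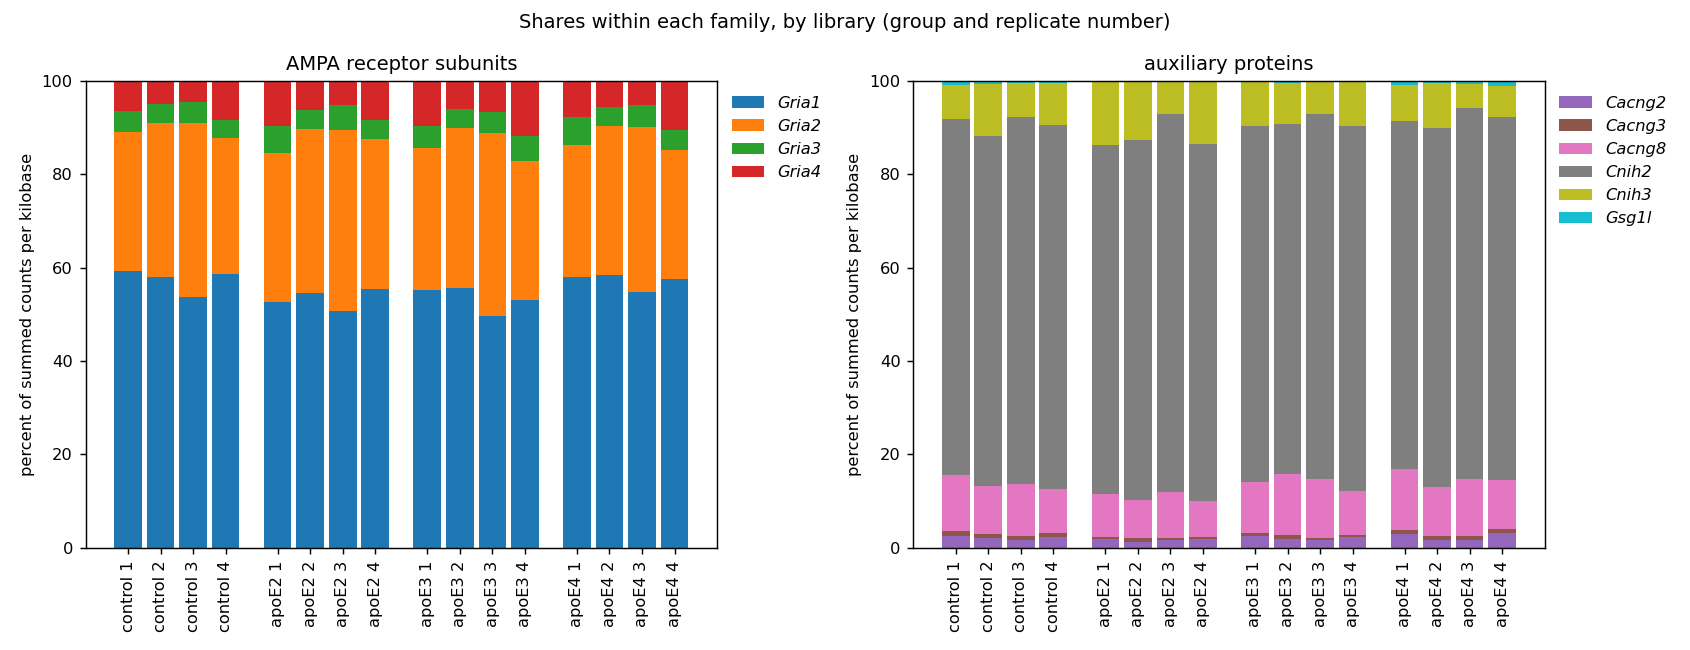
Share of each subunit gene among the 4 subunits (left) and of each auxiliary gene among the 6 auxiliary proteins (right), as percent of their summed counts per kilobase of exon, with 1 bar for each of the 16 libraries named by group and replicate number. *Gria1* holds 49.7 to 59.4% of every left bar and *Cnih2* 74.6 to 80.9% of every right bar, and the *Cnih3* band is tallest in apoE2 replicates 1, 2 and 4.

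Libraries that share a replicate number resembled each other more than libraries of the same treatment did, and this held for 8 of the 10 genes. On the log2 CPM scale the replicate numbers held 88.4% of the variance of *Cacng8*, 81.1% of *Gria2*, 79.1% of *Gria3*, 66.4% of *Cnih2*, 65.8% of *Cacng3*, 64.4% of *Gria1*, 44.6% of *Gria4* and 43.7% of *Cacng2*, more than the groups did for each. For *Cnih3* the groups held 46.3% and the numbers 34.4%, and for *Gsg1l* the groups held 61.1% and the numbers 25.5%. The labels do not say what a number marks, and the methods describe independent cultures. Each comparison is therefore given both ways, from edgeR without the replicate number and from edgeR with the replicate number as a block. The block compares libraries within a number. A gene is called where the Benjamini-Hochberg adjusted p over all 17038 tested genes is under 0.05.

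**Figure D2:**
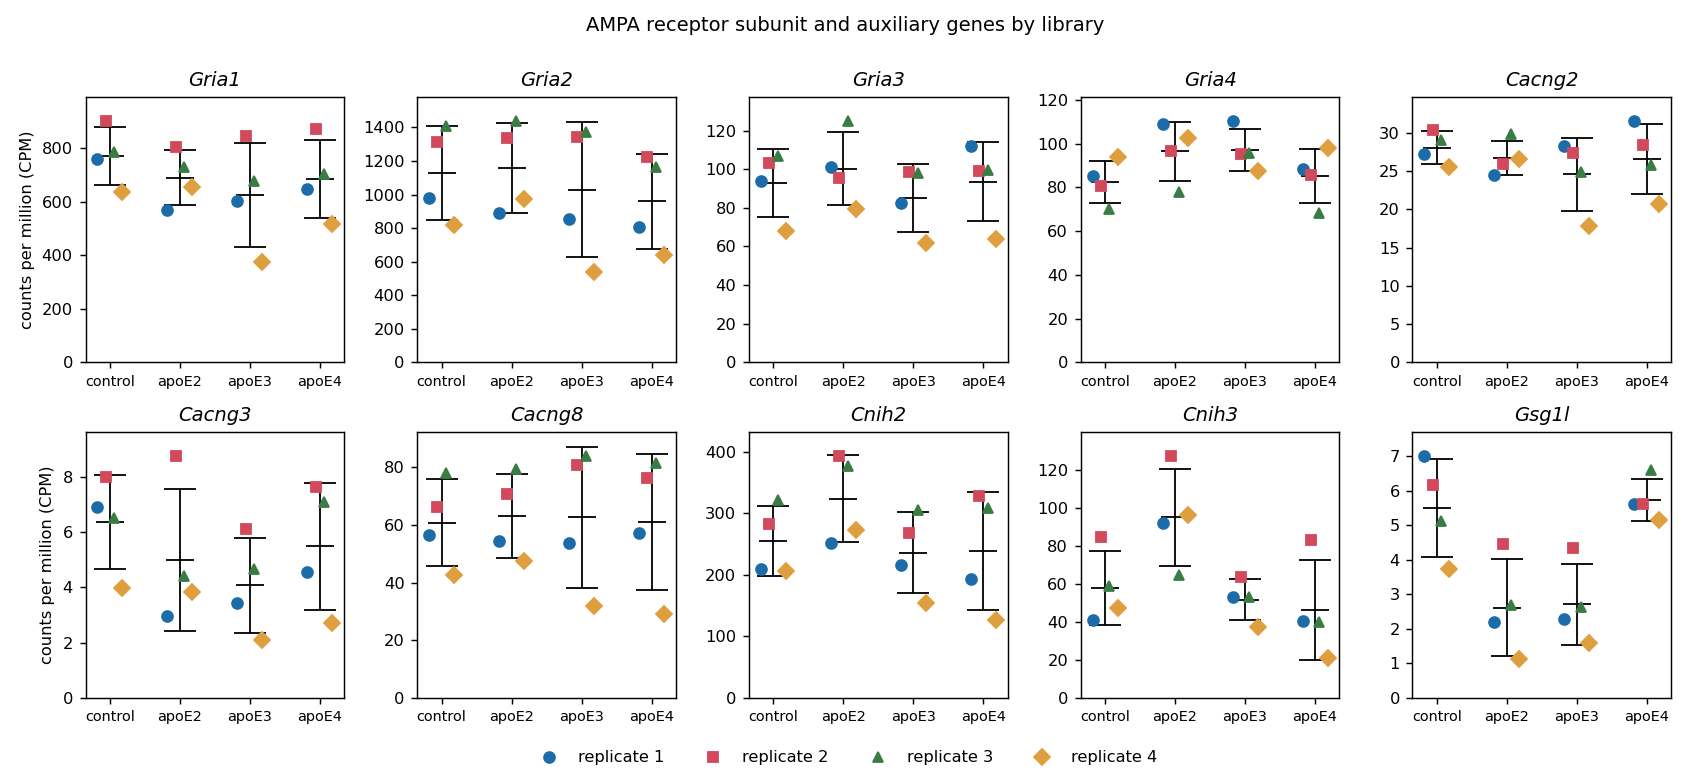
Level of each of the 10 genes in CPM (linear axis from 0) in the 4 libraries of each group. Symbols mark the replicate number, long bars the group mean and caps 1 SD. Replicates 2 and 3 are the upper symbols of *Gria2*, *Cacng8* and *Cnih2* in every group, and *Gsg1l* is at 1.12 to 4.47 CPM with apoE2 and 1.57 to 4.34 CPM with apoE3 against 3.71 to 6.99 CPM in the control.

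The comparisons with the control ask whether lipoproteins of each isoform change these RNAs. Without the block edgeR called 0 of the 10 genes with apoE2, apoE3 and apoE4, where 0.0%, 0.00587% and 0.194% of all tested genes were called. The same comparisons had 1, 1 and 0 members at an unadjusted p under 0.05, against 2.79%, 6.43% and 3.3% of all genes, and DESeq2 without the block called 0 members in each, against 0.17%, 0.352% and 0.534%. With the block, 1 member was called with apoE2 (*Gsg1l*, lower), 2 with apoE3 (*Gsg1l* and *Cacng3*, both lower) and 0 with apoE4, against 1.73%, 11.7% and 3.3% of all genes. DESeq2 with the block called 2, 3 and 0 members, against 4.16%, 15.8% and 5.65%. The study's own criterion asks for a 2-fold difference and an unadjusted p below 0.05. Applied here with the unadjusted edgeR p without the block, which is not the test the study used, it was met by 1, 1 and 0 members (*Gsg1l* each time), against 0.722%, 1.96% and 1.15% of all genes. No member had a treated group that did not overlap with the control, as 2.19%, 2.59% and 1.91% of all genes did.

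Between isoforms edgeR without the block called 0 of 10 members for apoE4 against apoE3, apoE4 against apoE2 and apoE3 against apoE2, where the share of all genes called was 0.147%, 0.252% and 0.0%. Unadjusted p was under 0.05 for 1, 2 and 1 members, against 4.7%, 5.34% and 2.28% of all genes, and DESeq2 without the block called 0, against 0.405%, 0.957% and 0.0528%. With the block the counts were 1 (*Gsg1l*), 3 (*Gsg1l*, *Cnih3* and *Cnih2*) and 0, against 1.77%, 4.44% and 1.31%. DESeq2 with the block called 1, 3 and 2, against 4.13%, 7.29% and 4.26%. The study's criterion was met by 1 (*Gsg1l*), 2 (*Gsg1l* and *Cnih3*) and 0 members, against 1.25%, 1.3% and 0.687%. In each of the 3 comparisons 1 member had groups without overlap, *Gsg1l* in both with apoE4 and *Cnih3* for apoE3 against apoE2, as 2.45%, 3.4% and 1.66% of all genes had. Comparisons with a shared group use the same libraries and are not independent.

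**Figure D3:**
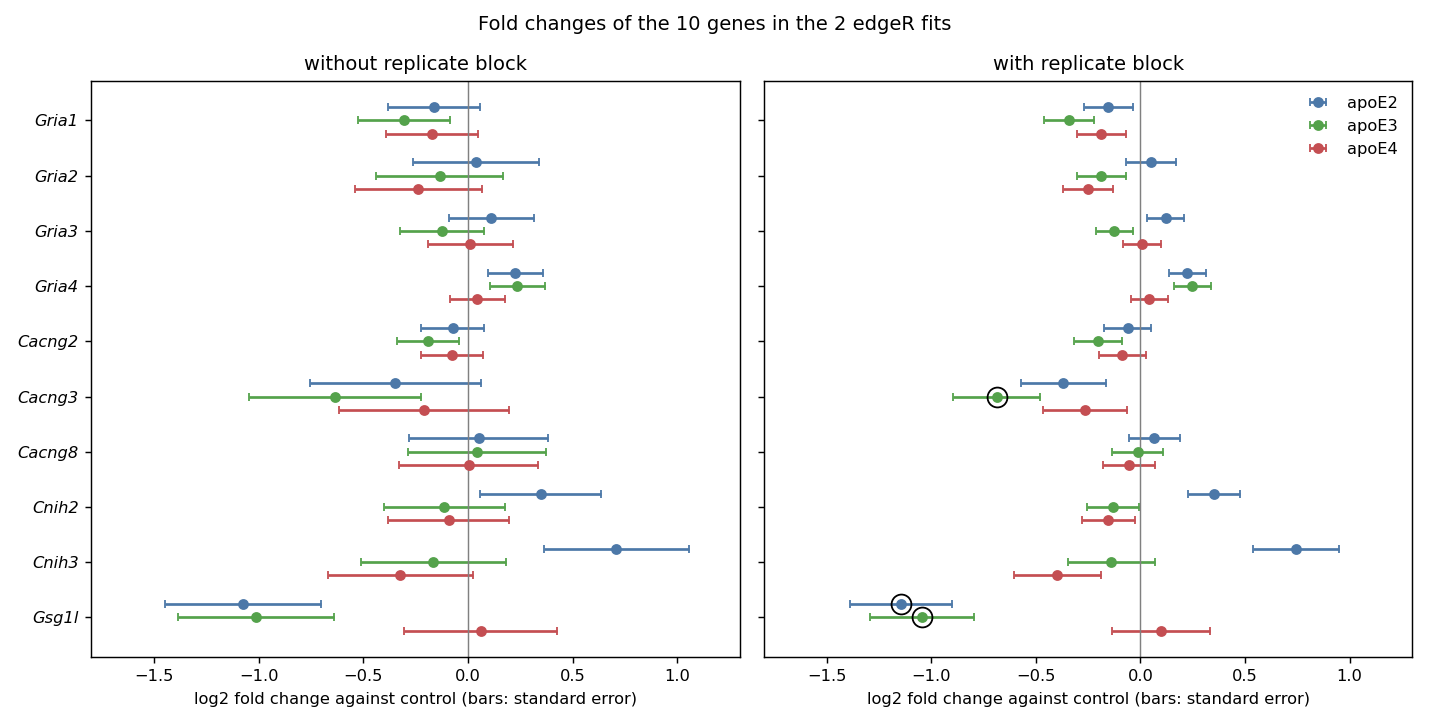
Log2 fold change against the control of the 10 genes with apoE2, apoE3 and apoE4, from the edgeR fit without (left) and with (right) the replicate block. Bars are 1 standard error and black rings mark an adjusted p under 0.05. The rings fall on *Gsg1l* with apoE2 and apoE3 and on *Cacng3* with apoE3, all in the right panel.

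*Gsg1l*, the suppressor among the auxiliary genes, was lower with apoE2 and apoE3 and near the control with apoE4. The study chose it as changed on these same libraries, so its direction here is not independent evidence. It was at 6.99, 6.15, 5.13 and 3.71 CPM in control replicates 1 to 4, at 2.18, 4.47, 2.68 and 1.12 CPM with apoE2, at 2.28, 4.34, 2.63 and 1.57 CPM with apoE3, and at 5.62, 5.61, 6.58 and 5.13 CPM with apoE4. Every apoE4 library lay above every apoE2 and apoE3 library, while the lowest control library, replicate 4, lay inside the range of both. These levels rest on 71 to 154 counts in the control, 31 to 117 with apoE2, 24 to 106 with apoE3 and 83 to 197 with apoE4. In order, the means were 5.74 ± 0.607 CPM with apoE4, 5.50 ± 1.41 in the control, 2.71 ± 1.18 with apoE3 and 2.61 ± 1.40 with apoE2 (SD, n = 4 each), and apoE4 and the control, like apoE3 and apoE2, lay closer together than their SD.

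Against the control, the log2 fold change of *Gsg1l* was −1.07 ± 0.37 (SE) with apoE2, −1.01 ± 0.37 with apoE3 and 0.06 ± 0.37 with apoE4. Without the block these did not pass (edgeR adjusted p = 1, 0.745 and 1.0, unadjusted p = 0.0119, 0.0166 and 0.871). With the block the log2 fold changes were −1.15 ± 0.24 with apoE2 and −1.05 ± 0.25 with apoE3, and both passed (edgeR adjusted p = 0.0296 and 0.0147), while 0.10 ± 0.23 with apoE4 did not (adjusted p = 0.885). All 4 apoE2 and all 4 apoE3 libraries were below the control library of the same number, by 1.38- to 3.32-fold with apoE2 and 1.42- to 3.06-fold with apoE3, and replicate 2 had the smallest difference with both. Without apoE2 replicate 4 the blocked apoE2 value was −0.96 (edgeR adjusted p = 0.0354). The apoE2 call was lost without apoE2 replicate 1 (edgeR adjusted p = 0.0845), apoE2 replicate 3 (0.0808), control replicate 1 (0.142), control replicate 3 (0.0583) or control replicate 4 (0.0676), and without all libraries numbered 1 (0.253) or 3 (0.176). The apoE3 call was lost without apoE3 replicate 1 (edgeR adjusted p = 0.0641) or control replicate 1 (0.0725), and without all libraries numbered 1 (0.157) or 3 (0.0845).

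Between isoforms, *Gsg1l* was higher with apoE4 than with apoE2 in 4 of 4 numbers, by 1.26- to 4.59-fold, and than with apoE3 in 4 of 4, by 1.29- to 3.26-fold. The log2 difference was 1.13 ± 0.37 from apoE2 and 1.07 ± 0.38 from apoE3 without the block (edgeR adjusted p = 0.478 and 0.800). With the block it was 1.24 ± 0.25 and 1.14 ± 0.25, and both passed (edgeR adjusted p = 0.00879 and 0.0320). Replicate 4 gave the 4.59-fold difference and replicate 2 the smallest with both isoforms, and each of these pairs holds a library that stood apart. Without apoE2 replicate 4 the blocked difference from apoE2 was 1.02 (edgeR adjusted p = 0.0369), and without apoE4 replicate 2 it was 1.48 (0.00284). Without apoE4 replicate 2 the blocked difference from apoE3 was 1.38 (edgeR adjusted p = 0.0106). The first call was lost where all libraries numbered 1 (edgeR adjusted p = 0.0513), 3 (0.0915) or 4 (0.0753) were left out. The second was lost without replicate 1, 3 or 4 of apoE3 (edgeR adjusted p = 0.135, 0.123 and 0.0677), replicate 1, 3 or 4 of apoE4 (0.0735, 0.126 and 0.0894), or all libraries numbered 1, 3 or 4 (0.189, 0.299 and 0.0817). ApoE2 and apoE3 did not differ detectably (log2 difference 0.06 ± 0.37, edgeR adjusted p = 1.0).

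*Cnih3*, the cornichon with the lower level, had its highest mean with apoE2 and its lowest with apoE4. It was at 40.7, 84.9, 59.1 and 47.3 CPM in control replicates 1 to 4, at 91.9, 127, 64.4 and 96.1 CPM with apoE2, at 53.2, 63.6, 53.0 and 37.0 CPM with apoE3, and at 40.6, 83.3, 40.0 and 21.2 CPM with apoE4. The apoE2 libraries all lay above the apoE3 libraries, the gap between apoE2 replicate 3 and apoE3 replicate 2 being small, and apoE2 overlapped with the control and with apoE4. Within a number, apoE2 exceeded the control in 4 of 4 (1.09- to 2.26-fold), and apoE4 was below the control in 4 of 4, although in replicates 1 and 2 only by 1.00- and 1.02-fold. Against the control the log2 fold change was 0.71 ± 0.35 (SE) with apoE2, −0.16 ± 0.35 with apoE3 and −0.32 ± 0.35 with apoE4, none of which passed (edgeR adjusted p = 1, 0.915 and 1.0). When a library or number was left out without the block, these ranged from 0.52 to 0.95, −0.31 to 0.08 and −0.77 to −0.08. With the block the apoE2 value was 0.74 ± 0.21 and did not pass in edgeR (adjusted p = 0.0885), but passed in DESeq2 with the block at 0.73 ± 0.21 (adjusted p = 0.0200) and in edgeR without apoE4 replicate 4 (adjusted p = 0.0361).

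The difference of *Cnih3* between apoE4 and apoE2 was a log2 value of −1.03 ± 0.35 without the block (edgeR adjusted p = 0.510) and −1.14 ± 0.21 with it (edgeR adjusted p = 0.00603). It was called in 20 of 20 blocked fits that left out a library or a number, with log2 values between −1.36 and −0.82. In replicate 4 the levels were 21.2 and 96.1 CPM, a 4.53-fold difference, and in the other numbers the difference was 1.53- to 2.26-fold. ApoE2 replicate 4 is among the libraries that stood apart, and without it the blocked log2 difference was −0.94 (edgeR adjusted p = 0.0146). Without apoE4 replicate 2, which also stood apart, it was −1.35 (edgeR adjusted p = 0.00241), and without number 4 it was −0.82 (0.0235). For apoE3 against apoE2 the log2 difference was −0.87 ± 0.35 without the block (edgeR adjusted p = 1.0) and −0.88 ± 0.21 with it (edgeR adjusted p = 0.0512), and it was lower in 4 of 4 numbers. It passed in DESeq2 with the block at −0.88 ± 0.21 (adjusted p = 0.00287), and in the blocked edgeR fit without apoE2 replicate 3 (edgeR adjusted p = 0.0313), replicate 2 or 4 of apoE4 (0.0389 and 0.0230) or control replicate 1 (0.0458).

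*Cnih2*, the cornichon that dominates in the hippocampus, was highest with apoE2, with smaller differences between the groups than *Cnih3*. It was at 209.9, 283, 321 and 206 CPM in control replicates 1 to 4, at 253, 393, 377 and 274 CPM with apoE2, at 216, 269, 305 and 154 CPM with apoE3, and at 193, 328, 309 and 126 CPM with apoE4. Each apoE2 library was the highest of its replicate number, and all groups overlapped. Against the control the log2 fold change was 0.35 ± 0.29 (SE) with apoE2, −0.11 ± 0.29 with apoE3 and −0.09 ± 0.29 with apoE4 (edgeR adjusted p = 1, 0.936 and 1.0). With the block the apoE2 value was 0.35 ± 0.13 (edgeR adjusted p = 0.1997), and the values with apoE3 and apoE4 did not pass either (0.531 and 0.584).

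For apoE4 against apoE2 the log2 difference of *Cnih2* was −0.44 ± 0.29 without the block (edgeR adjusted p = 1.0) and −0.50 ± 0.13 with it (edgeR adjusted p = 0.0327). ApoE4 was lower in 4 of 4 numbers, by 1.20- to 1.31-fold in replicates 1 to 3 and by 2.17-fold in replicate 4. The blocked value was −0.39 without apoE2 replicate 4, −0.31 without number 4 and −0.62 without apoE4 replicate 2. The call was lost without replicate 2 or 4 of apoE2 (edgeR adjusted p = 0.0823 and 0.101), replicate 1, 3 or 4 of apoE4 (0.0905, 0.0750 and 0.105), or all libraries numbered 1, 3 or 4 (0.0992, 0.112 and 0.0800). For apoE3 against apoE2 the log2 difference was −0.46 ± 0.29 without the block (edgeR adjusted p = 1.0) and −0.48 ± 0.13 with it, which passed in DESeq2 (adjusted p = 0.0143) and not in edgeR (0.0729) unless apoE4 replicate 4 was left out (0.0275).

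The 250 bases before the RefSeq start of both cornichon genes are shown because both genes had their highest mean with apoE2 and differed between apoE4 and apoE2 with the block, and because their starts coincide in RefSeq (GRCm38.p6) and GENCODE. They lie at chr19:5098522-5098771 (minus strand) for *Cnih2* and at chr1:181352378-181352627 (plus strand) for *Cnih3*. Capitals mark the Sp1 box GGGCGG and the E-box CACGTG on either strand, neither of which overlaps the other.
Cnih2: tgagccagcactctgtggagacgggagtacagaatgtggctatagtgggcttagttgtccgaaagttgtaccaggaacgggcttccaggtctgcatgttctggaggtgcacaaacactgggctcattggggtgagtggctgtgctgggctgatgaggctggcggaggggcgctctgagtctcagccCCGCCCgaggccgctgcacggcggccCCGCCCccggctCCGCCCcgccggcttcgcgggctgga
Cnih3: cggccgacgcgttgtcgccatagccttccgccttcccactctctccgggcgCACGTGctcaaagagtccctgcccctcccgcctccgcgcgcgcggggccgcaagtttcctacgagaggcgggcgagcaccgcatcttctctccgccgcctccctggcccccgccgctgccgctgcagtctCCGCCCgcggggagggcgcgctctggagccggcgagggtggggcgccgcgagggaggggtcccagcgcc
The *Cnih2* stretch was 65.6% G and C and held 3 Sp1 boxes, all near the start, and the *Cnih3* stretch was 76.0% G and C and held 1 Sp1 box and 1 E-box. Of the 7 members with a promoter in the table, 2 held an Sp1 box, 1 an E-box and 0 the cAMP response element TGACGTCA, against 32.7%, 6.02% and 1.55% of 32851 promoters. These are matches of letters only.

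Among the TARP genes, *Cacng3* was at 6.90, 8.001, 6.52 and 3.98 CPM in control replicates 1 to 4, at 2.96, 8.74, 4.40 and 3.84 CPM with apoE2, at 3.42, 6.10, 4.64 and 2.10 CPM with apoE3, and at 4.54, 7.63, 7.08 and 2.69 CPM with apoE4. All groups overlapped, replicate 4 being low in the control, apoE3 and apoE4. ApoE3 was below the control in 4 of 4 numbers, by 1.31- to 2.02-fold. The log2 fold change with apoE3 was −0.64 ± 0.41 (SE) without the block (edgeR adjusted p = 0.806) and −0.69 ± 0.21 with it, which passed (edgeR adjusted p = 0.0443). It was called in 7 of 20 blocked fits that left something out, and lost without replicate 1, 2, 3 or 4 of apoE3 (edgeR adjusted p = 0.112, 0.0666, 0.0759 and 0.134), replicate 1, 3 or 4 of the control (0.188, 0.0715 and 0.0902), replicate 1 or 2 of apoE4 (0.0576 and 0.0550), or any number in whole (0.201, 0.0643, 0.104 and 0.0967). With apoE2 and apoE4 it was −0.35 ± 0.41 and −0.21 ± 0.41 and did not pass in either fit (edgeR adjusted p of at least 0.473).

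*Cacng8* and *Cacng2*, the better-known TARPs of the hippocampus and the cerebellum, showed no difference that passed. *Cacng8* ranged from 29.1 to 83.9 CPM, and its group means lay between 60.8 ± 15.04 CPM (SD, n = 4) in the control and 63.0 ± 14.6 CPM with apoE2. Its log2 fold changes were 0.05 ± 0.33 (SE) with apoE2, 0.04 ± 0.33 with apoE3 and 0.00 ± 0.33 with apoE4, and the signs with apoE3 and apoE4 turned with the block. *Cacng2* ranged from 17.8 to 31.6 CPM, with group means from 24.6 ± 4.76 CPM with apoE3 to 28.1 ± 2.12 CPM in the control, and log2 fold changes of −0.07 ± 0.15, −0.19 ± 0.15 and −0.08 ± 0.15. The adjusted p of edgeR was at least 0.267 for both genes in both fits.

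The subunit genes differed less between groups than *Gsg1l* and *Cnih3* did, and none was called in edgeR with all 16 libraries, without or with the block. *Gria1* was at 759.8, 903, 788 and 637 CPM in control replicates 1 to 4, at 569, 806, 731 and 654 CPM with apoE2, at 603, 844, 677 and 376 CPM with apoE3, and at 646, 872, 704 and 518 CPM with apoE4. The groups overlapped, and apoE3 replicate 4 was the lowest. ApoE3 and apoE4 were below the control in 4 of 4 numbers, and apoE2 in 3 of 4. The log2 fold change was −0.16 ± 0.22 (SE) with apoE2, −0.30 ± 0.22 with apoE3 and −0.17 ± 0.22 with apoE4 (edgeR adjusted p = 1, 0.808 and 1.0). With the block the apoE3 value was −0.34 ± 0.12 (edgeR adjusted p = 0.0746), and it passed in DESeq2 with the block at −0.36 ± 0.12 (adjusted p = 0.0327). In the blocked edgeR fit it also passed without apoE2 replicate 4 (−0.36, edgeR adjusted p = 0.0209) or apoE3 replicate 2 (−0.41, 0.0476), in 2 of 20 fits that left something out.

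*Gria2* was at 980.1, 1315, 1408 and 816 CPM in control replicates 1 to 4, at 891, 1337, 1440 and 973 CPM with apoE2, at 854, 1344, 1375 and 541 CPM with apoE3, and at 805, 1226, 1164 and 642 CPM with apoE4. Replicates 2 and 3 were the high libraries in every group, and all groups overlapped. Its log2 fold change was 0.04 ± 0.30 (SE) with apoE2, −0.14 ± 0.30 with apoE3 and −0.24 ± 0.30 with apoE4 (edgeR adjusted p = 1, 0.921 and 1.0). With the block apoE4 stood at −0.25 ± 0.12 against the control and −0.30 ± 0.12 against apoE2, lower in 4 of 4 numbers both times, and neither passed (edgeR adjusted p = 0.302 and 0.183).

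*Gria3* and *Gria4*, the minor subunits, ranged from 61.6 to 125 CPM and from 68.5 to 110.4 CPM. *Gria4* averaged 82.5 ± 9.76 CPM in the control, 96.5 ± 13.4 with apoE2, 97.2 ± 9.59 with apoE3 and 85.1 ± 12.3 with apoE4 (SD, n = 4), and in the control, apoE2 and apoE4 groups its highest libraries were replicates 1 and 4, where *Gria2* was lowest. Its log2 fold change was 0.23 ± 0.13 (SE) with apoE2, higher in 4 of 4 numbers, 0.24 ± 0.13 with apoE3, higher in 3 of 4, and 0.04 ± 0.13 with apoE4 (edgeR adjusted p = 1, 0.803 and 1.0). With the block it was 0.22 ± 0.09 and 0.25 ± 0.09 with apoE2 and apoE3 (edgeR adjusted p = 0.270 and 0.0838), and −0.20 ± 0.09 for apoE4 against apoE3 (0.269). The blocked apoE3 value passed without apoE3 replicate 4 (0.34, edgeR adjusted p = 0.0177) or all libraries numbered 4 (0.34, 0.0160). Without number 4 the blocked difference between apoE4 and apoE3 passed too (−0.33, edgeR adjusted p = 0.0483). *Gria3* averaged 92.8 ± 17.5 CPM in the control, 100.3 ± 18.8 with apoE2, 85.1 ± 17.4 with apoE3 and 93.6 ± 20.6 with apoE4, with log2 fold changes of 0.11 ± 0.20, −0.12 ± 0.20 and 0.01 ± 0.20. Its difference between apoE3 and apoE2 was −0.24 ± 0.09 with the block (edgeR adjusted p = 0.191).

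The ratio of *Gria1* to *Gria2*, each per kilobase of exon, bears on subunit composition and does not depend on the scaling of a library. It was 1.99, 1.77, 1.44 and 2.01 in control replicates 1 to 4, 1.64, 1.55, 1.31 and 1.73 with apoE2, 1.82, 1.62, 1.27 and 1.79 with apoE3, and 2.07, 1.83, 1.56 and 2.08 with apoE4. The groups overlapped, but the order within a number was the same in all 4 numbers for the control, with apoE2 and apoE3 below it and apoE4 above it. The means were 1.80 ± 0.266 in the control, 1.56 ± 0.182 with apoE2, 1.62 ± 0.253 with apoE3 and 1.88 ± 0.245 with apoE4 (SD, n = 4). Over the 4 against 4 libraries, two-sided exact permutation tests of the log2 ratio gave p = 0.2, 0.457 and 0.629, where 0.0286 is the smallest possible. Exact sign flips over the 4 pairs gave p = 0.125 in each, the smallest they can give, and over 9 tests of 3 ratios the adjusted p of the permutation tests was at least 0.771.

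The other ratios also overlapped between groups. *Cnih3* to *Cnih2* was 0.113 ± 0.0261 in the control, 0.150 ± 0.0445 with apoE2, 0.112 ± 0.0169 with apoE3 and 0.0948 ± 0.0266 with apoE4 (SD, n = 4; two-sided exact permutation p = 0.257, 1.0 and 0.343). *Cacng8* to *Cacng2* was 5.05 ± 0.988 in the control, 5.53 ± 1.03, 5.89 ± 1.83 and 5.32 ± 1.88 (two-sided exact permutation p = 0.457, 0.514 and 0.943).

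**Figure D4:**
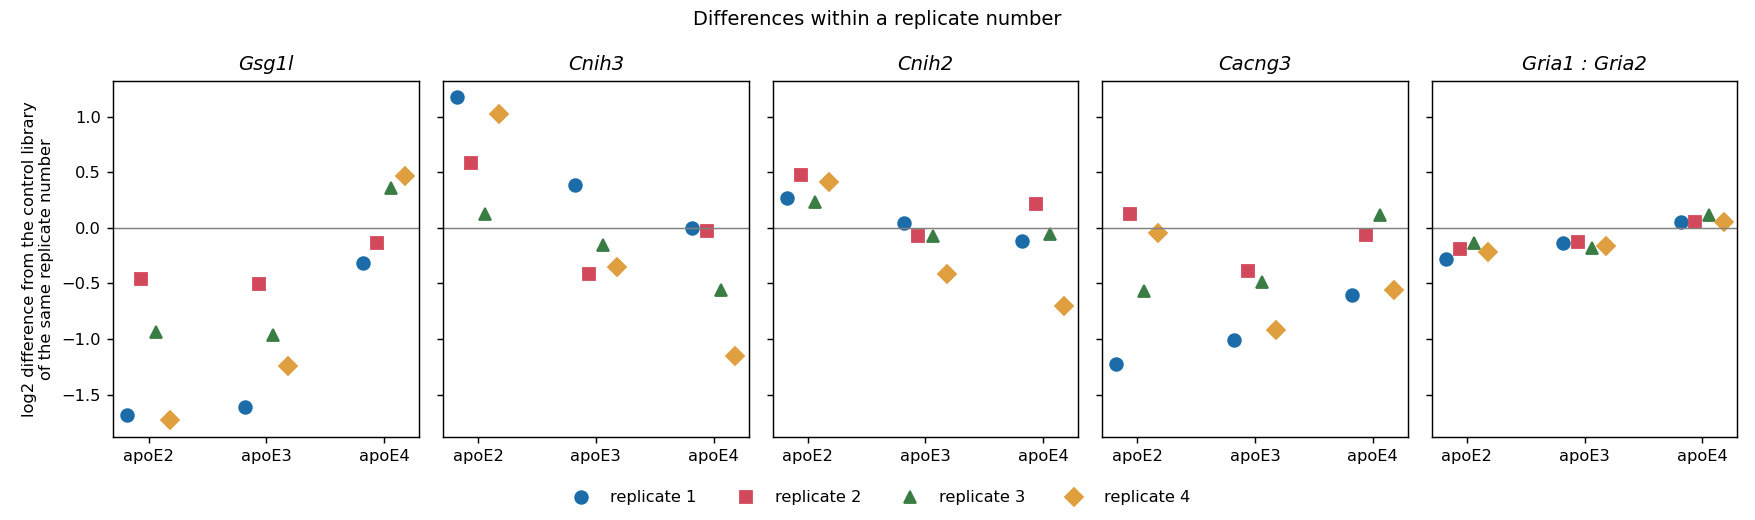
Log2 difference of each treated library from the control library of the same replicate number, for *Gsg1l*, *Cnih3*, *Cnih2* and *Cacng3* (CPM) and for the *Gria1* to *Gria2* ratio, with symbols for the replicate number. *Gsg1l* is below 0 in all 4 numbers with apoE2 and apoE3 and in 2 of 4 with apoE4, *Cnih3* and *Cnih2* are above 0 in all 4 with apoE2, and the ratio is below 0 with apoE2 and apoE3 and above 0 with apoE4 in all 4.

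Of 53 other genes of AMPA receptor biology (further auxiliary and core-complex proteins, assembly factors of the endoplasmic reticulum, intracellular binding partners, kinases, phosphatases and RNA editing enzymes), all were tested, and edgeR without the block called 0 with each isoform against the control. Unadjusted p was under 0.05 for 1, 4 and 1 of them with apoE2, apoE3 and apoE4, beside 2.79%, 6.43% and 3.3% of all tested genes. With the block 1 was called with apoE2, 10 with apoE3 (3 higher and 7 lower) and 0 with apoE4, beside 1.73%, 11.7% and 3.3% of all tested genes. Their median log2 fold changes with the block were 0.04, −0.12 and −0.07, beside 0.01, 0.01 and −0.00 over all tested genes, and those of the 10 members were 0.06, −0.16 and −0.12.

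*Syndig1l*, a relative of the AMPA receptor-binding *Syndig1* that the study also chose as changed, was the 1 gene of these that met the study's criterion without the block. It was at 6.18, 5.91, 3.45 and 6.59 CPM in control replicates 1 to 4, at 7.18, 12.1, 16.6 and 13.4 CPM with apoE2, at 22.6, 14.7, 27.6 and 14.4 CPM with apoE3, and at 11.5, 7.86, 4.76 and 7.57 CPM with apoE4. All apoE2 and apoE3 libraries lay above all control libraries, and apoE4 overlapped with the control. The log2 fold change was 1.16 ± 0.32 (SE) with apoE2 (edgeR adjusted p = 0.800) and 1.84 ± 0.32 with apoE3 (0.202), and with the block 1.19 ± 0.31 (edgeR adjusted p = 0.0687) and 1.84 ± 0.31 (0.00237).

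The other genes called with the block were *Prkacb* (a catalytic subunit of protein kinase A), lower with apoE2 (log2 fold change −0.40, edgeR adjusted p = 0.0429), and 9 genes with apoE3. Of these, *Cacng5* (TARP γ-5; 0.86, adjusted p = 0.00312) and *Myo6* (a motor that carries receptors inward; 0.62, 0.0152) were higher. *Adarb2* (of the ADAR family; −1.03, adjusted p = 0.00426), *Arc* (an activity-induced factor of AMPA receptor endocytosis; −0.97, 0.00266), *Brinp1* (a protein of native AMPA receptor complexes; −0.94, 0.00142) and *Akap5* (a kinase anchor at the receptor; −0.60, 0.00524) were lower in edgeR. *Camk2b* (−0.36, edgeR adjusted p = 0.0397), *Prkacb* (−0.35, 0.0233) and the calcineurin catalytic subunit *Ppp3ca* (−0.34, 0.0354) were lower too. All 10 apoE3 calls held their direction in 4 of 4 numbers.

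The levels of most members ran with those of neuronal markers across the libraries. Over the 16 libraries, Pearson's r between the log2 CPM of a gene and the log2 summed CPM of the 9 pan-neuronal markers was 0.967 for *Gria2*, 0.954 for *Cacng8*, 0.896 for *Cnih2*, 0.826 for *Gria3*, 0.825 for *Gria1*, 0.786 for *Cacng3* and 0.638 for *Cacng2*. It was 0.477 for *Cnih3*, 0.391 for *Gsg1l* and −0.540 for *Gria4*. With the summed astrocyte markers r was −0.903 for *Gria1*, −0.883 for *Cacng3*, −0.788 for *Gria2*, −0.708 for *Cnih2*, −0.688 for *Cnih3*, −0.685 for *Cacng8*, −0.588 for *Cacng2*, −0.573 for *Gria3*, −0.452 for *Gsg1l* and 0.205 for *Gria4*. For *Gria1*, *Cacng3*, *Cnih3* and *Gsg1l* this was larger in size than with the neuronal markers. These are descriptions without a test, since the libraries share replicate numbers and the sums share the scaling.

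The summed pan-neuronal markers were 4385 to 7803 CPM in the control, 4759 to 7975 with apoE2, 3173 to 7204 with apoE3 and 3610 to 7482 with apoE4. The summed astrocyte markers were 1624 to 4460, 1560 to 4410, 1944 to 7868 and 1889 to 6927 CPM. ApoE3 and apoE4 replicate 4 had both the least neuronal and the most astrocyte marker RNA. Without the block edgeR called 0 of the tested markers in every list with each isoform, so the marker calls come from the blocked fit only. With the block 7 of 9 astrocyte markers were called higher with apoE3, 4 of 9 with apoE4 and 0 of 9 with apoE2 (edgeR). Of all tested genes 11.7%, 3.3% and 1.73% were called in that order. Of the 9 pan-neuronal markers 3 were called with apoE3, 2 of them lower, and 0 with apoE2 and apoE4. Markers of other cells were called with apoE3 as well, 4 of 8 for interneurons (3 of them lower), 3 of 8 for the oligodendrocyte lineage, 2 of 5 for fibroblasts and 3 of 6 for dividing cells (all higher). With apoE4 the same lists had 0, 1, 1 and 1 called and with apoE2 0, 0, 0 and 1, all higher. Of the 8 excitatory neuron markers 1 was called, higher with apoE3, and of the microglial and the vascular markers 0 with each isoform. Per summed pan-neuronal marker, apoE2, apoE3 and apoE4 differed from the control by a mean log2 value of −1.22, −0.88 and 0.18 for *Gsg1l*, and of 0.70, 0.07 and −0.35 for *Cnih3*. For *Cacng3* it was −0.45, −0.50 and −0.19 and for *Gria1* −0.18, −0.15 and −0.10, with *Gria1* lower in 4 of 4 numbers with each isoform. The values of *Gria4* were 0.20, 0.44 and 0.13, and with apoE3 it was higher in 4 of 4 numbers, against 3 of 4 in CPM. *Cacng8* stood at 0.18 with apoE3, higher in 4 of 4 numbers, and *Cacng2* at −0.01. With apoE3 *Gria2*, *Gria3* and *Cnih2* were at 0.00, 0.08 and 0.07, and like *Cnih3* they were above 0 where their log2 fold changes in CPM were below it. The part of the cell content in these values was not tested. The higher astrocyte marker RNA with apoE3 and apoE4 stands beside the paper's counts of GFAP-labeled cells, which showed no significant difference between treatments.

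**Figure D5:**
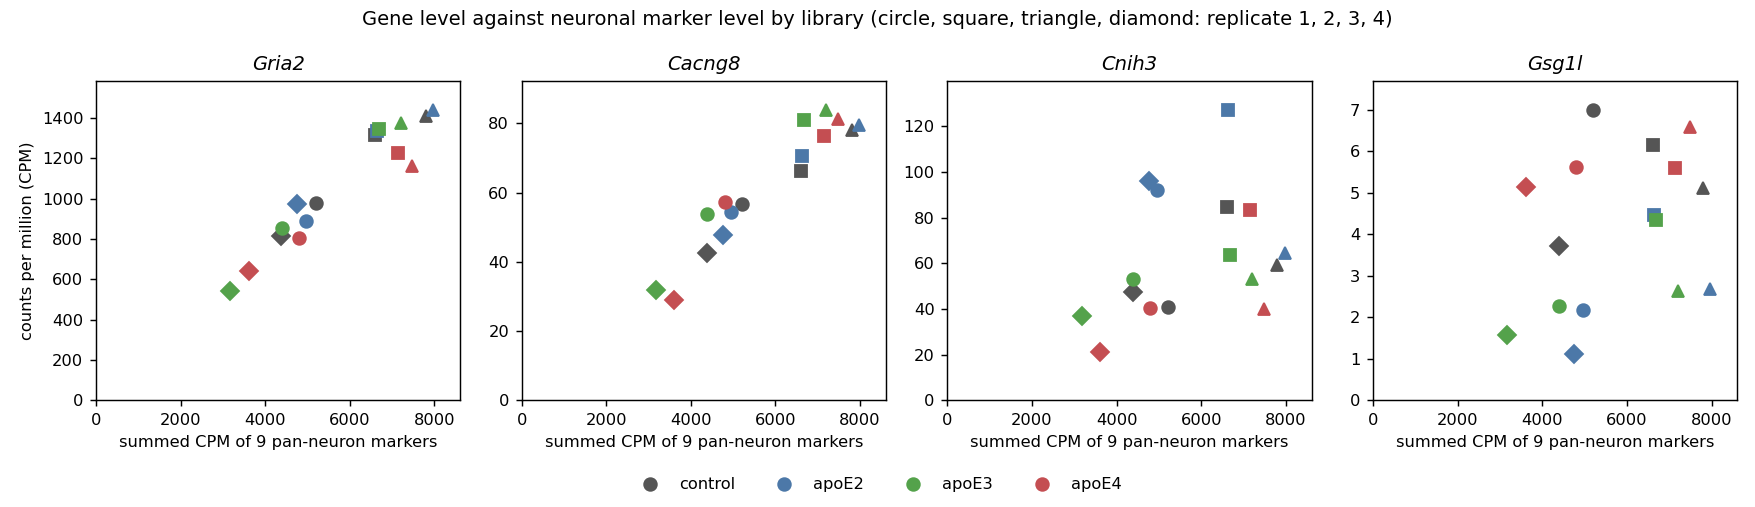
Level of *Gria2*, *Cacng8*, *Cnih3* and *Gsg1l* (CPM, vertical) against the summed CPM of 9 pan-neuronal markers (horizontal) in the 16 libraries, colored by group and shaped by replicate number. *Gria2* and *Cacng8* lie along a line (r = 0.967 and 0.954 on log2 values), whereas the apoE2 points of *Cnih3* lie above, and the apoE2 and apoE3 points of *Gsg1l* below, the control point of the same replicate number in 4 of 4 numbers.

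The 3 genes whose log2 CPM ran closest to each member over the 16 libraries are given as a description. *Gria2* was closest to *Ncoa7* (Pearson r = 0.995), *Gabra5* (0.988) and *Dnajc6* (0.984), and *Gria1* to *Scn3a* (0.979), *Ttc3* (0.979) and *Camk2b* (0.971). *Cacng8* was closest to *Slc17a7* (0.985), the vesicular glutamate transporter of excitatory hippocampal neurons, *Nat8l* (0.978) and *A330009N23Rik* (0.978). *Cnih2* was closest to *Tspan13* (0.973), *Orai2* (0.972) and *Nell2* (0.967), and *Cnih3* to *Neurod2* (0.925), *Chd3* (0.920) and *Necab1* (0.918). *Gria3* had *Pcdh1* (0.948), *Kcnj6* (0.946) and *Mib1* (0.938), *Cacng3* had *Gm45177* (0.960), *Dmtn* (0.959) and *Pde8b* (0.958), and *Cacng2* had *Klhl11* (0.908), *Gm42866* (0.894) and *Gm25857* (0.893). *Gsg1l* was closest to *6530402F18Rik* (0.923), *Ntng2* (0.920) and *Mapk4* (0.889), and *Gria4* to *Imp3* (0.887), *1500009C09Rik* (0.863) and *Taf4b* (0.861). Among the members themselves, *Gria2*, *Cacng8*, *Cnih2*, *Gria1* and *Cacng3* had deviations from the group means that correlated with each other at 0.830 to 0.951, whereas *Gria4* had a negative correlation with each of the other 9, from −0.563 to −0.0353.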

How the data were processed

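RNA of 16 cultures was depleted of ribosomal RNA and sequenced. Reads were mapped to mm10 by the authors (STAR) and assigned to genes (HTSeq), and the deposited values are raw counts. Annotation and strand are not given in the sources used here. The submitters' processing notes name R 3.3.0. The HTSeq rows that name no gene (38.4 to 73.7% of a library) stayed out of library sizes and tests. The AraC concentration reads in μmol/L in the paper and in mmol/L in the labels.

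edgeR 4.0.16 in R 4.3.3 fitted all 16 libraries with 1 coefficient per group, TMM scaling, filterByExpr (minimum count 10, total 15, proportion 0.7) and quasi-likelihood tests on 17038 genes. Adjustment was by Benjamini-Hochberg, separately in each of 6 comparisons. CPM are relative to the TMM-scaled library size, log2 CPM use a prior count of 2, and lengths are union exons of GENCODE M21 (95.7% of symbols matched). Promoter sequences come from RefSeq, GRCm38.p6. The fits were tested on simulated data.

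Libraries that share a replicate number in the labels deviated together from their group means. Their correlations ranged from 0.362 to 0.831, and those of libraries that share neither group nor number from −0.736 to 0.569. Every pair that shares a number exceeded 0.1, but the pairs of number 1 (0.362 to 0.552) lay below the highest of those that share neither. The numbers were used as blocks on these correlations, although the labels do not say what a number marks. Whether the cultures of a number were prepared together is therefore not known. The common dispersion was 0.132 without the block and 0.0178 with it. The study names no block, so the fit without it is given first.

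Alternatives were DESeq2 size factors, library sizes without the 4 features over 1%, no filter, a filter of 1 CPM in 8 libraries, DESeq2 1.42.0, only the 2 groups compared, the replicate block in edgeR and DESeq2, each library or number left out, and the study's criterion (2-fold and unadjusted p below 0.05, here with the edgeR p, not the test the study ran). Chosen after seeing the data were leaving libraries out of the blocked fit, values per pan-neuronal marker and another transcript length.

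The members, the lists of other genes and the markers were chosen with earlier results of these data known. All 10 members are named. Isoform-against-isoform values are named where the unadjusted p was under 0.05 in either fit. Of the other AMPA receptor genes, those called against the control or meeting the study's criterion are named.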

Additional observations from a re-analysis of the deposited data

Results flagged for a closer look

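Each of these differences between 2 isoforms, in their effect against the same control, was tested by edgeR with the replicate block over 17038 genes. *Gsg1l* differed between apoE4 and apoE3 by a log2 value of 1.14 and between apoE4 and apoE2 by 1.24, higher with apoE4 in 4 of 4 numbers each time. Between apoE4 and apoE2, *Cnih3* differed by −1.14 and *Cnih2* by −0.504, both lower with apoE4 in 4 of 4 numbers. Without the block none of these 4 differences passed. Of 20 blocked fits that left out a library or number, *Cnih3* was called in 20 and *Cnih2* in 12. In those fits *Gsg1l* was called in 17 for apoE4 against apoE2 and in 11 for apoE4 against apoE3. With the block and all libraries, 4.44% of all tested genes were called for apoE4 against apoE2 and 1.77% for apoE4 against apoE3.

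Other patterns were opposite in direction against the control, and the pattern of directions was not tested. *Cnih3* was above the control library of the same number in 4 of 4 with apoE2 and below it in 4 of 4 with apoE4, by 1.00- to 2.23-fold. With apoE4 the difference was only 1.00- and 1.02-fold in replicates 1 and 2. Per summed pan-neuronal marker, *Cnih3* with apoE4 was lower in 3 of 4 numbers and higher in 1. Its tested difference between apoE4 and apoE2 is the one given above. The ratio of *Gria1* to *Gria2* was below the control in 4 of 4 numbers with apoE2 and with apoE3, and above it in 4 of 4 with apoE4.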

How the results depend on the processing

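Without the block, 0 members were called in each of the 6 comparisons under DESeq2 size factors, library sizes without the 4 largest features, no filter, the stricter filter, DESeq2, only the 2 groups compared, and each library or number left out. The replicate block changed these counts. With it, apoE2 against control had 1 called in edgeR and 2 in DESeq2, apoE3 against control 2 and 3, apoE4 against apoE3 1 and 1, apoE4 against apoE2 3 and 3, and apoE3 against apoE2 0 and 2, while apoE4 against control had 0 in both. DESeq2 with the block also called more of all tested genes than edgeR did in each comparison (709 against 294 for apoE2 against control, and 726 against 224 for apoE3 against apoE2). The study's criterion gave 1, 1, 1 and 2 for the first 4 of these, and the same counts with the block. Of 20 unblocked fits that left out a library or number, *Gsg1l* met that criterion in 15 with apoE2, 12 with apoE3, 16 for apoE4 against apoE3 and 16 for apoE4 against apoE2, and *Cnih3* in 14 for apoE4 against apoE2. When a library or number was left out of the blocked edgeR fit, the counts ranged from 0 to 2 with apoE2, 0 to 3 with apoE3, 0 to 1 for apoE4 against apoE3, 1 to 3 for apoE4 against apoE2 and 0 to 2 for apoE3 against apoE2. In the same fits the genes called among all tested (16571 to 17717) numbered 21 to 851, 420 to 2714, 42 to 443, 246 to 940 and 15 to 278 in that order.

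Log2 fold changes near 0 changed sign, and the cause was not tested. For *Cacng8* with apoE4 the value was −0.0043 with DESeq2 size factors, −0.0039 without a filter, −0.0047 with the stricter one, −0.0042 in DESeq2, −0.0006 with only the 2 groups, and −0.0541 and −0.0662 with the block in edgeR and DESeq2. For *Cacng8* with apoE3 the block gave −0.0127 and −0.0304, and for *Gria3* with apoE4 the block in DESeq2 gave −0.0020. Per pan-neuronal marker, apoE3 values were 0.0043 for *Gria2*, 0.0753 for *Gria3*, 0.0708 for *Cnih2* and 0.0682 for *Cnih3*. Leaving out libraries turned others without the block. With apoE2 the ranges were −0.0946 to 0.1622 for *Gria2*, −0.0263 to 0.2030 for *Gria3* and −0.0924 to 0.1949 for *Cacng8*. With apoE3 they were −0.3073 to 0.0783 for *Gria2*, −0.2461 to 0.0037 for *Gria3*, −0.1306 to 0.2631 for *Cacng8*, −0.2608 to 0.0475 for *Cnih2*, −0.3118 to 0.0772 for *Cnih3* and −0.0951 to 0.1404 for the log2 ratio of *Cnih3* to *Cnih2*. With apoE4 they were −0.1126 to 0.1502 for *Gria3*, −0.0318 to 0.1384 for *Gria4*, −0.1827 to 0.0210 for *Cacng2*, −0.4154 to 0.0153 for *Cacng3*, −0.1652 to 0.2328 for *Cacng8*, −0.2853 to 0.1178 for *Cnih2*, −0.0856 to 0.2066 for *Gsg1l*, −0.1593 to 0.2300 for the log2 ratio of *Cacng8* to *Cacng2*, and −0.0379 to 0.1541 for that of *Gria1* to *Gria2*. *Gsg1l* rests on as few as 24 counts in a library.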
